A study of Rattus norvegicus with 46 samples.

Results

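Quadriceps muscle of rats given CagriSema was compared with quadriceps of rats brought to a matched body weight by food restriction. The members are the 16 libraries that the labels place in these groups, 8 CagriSema and 8 weight matched, out of 46 libraries in the series, and the 2 groups were fitted alone. Of the 32552 genes in the table, 12063 passed the filter on low counts and were tested. CagriSema joins 2 long-acting peptide drugs, cagrilintide, which resembles the satiety hormone amylin, and semaglutide, which activates the receptor of GLP-1 (glucagon-like peptide 1). Both groups carried the genotype label WT, and the series' design text, which names liver alone, speaks of food restriction and of DIO rats, animals made obese by diet. Their treatment labels read CagriSema and Weight matched, and a further 7 quadriceps libraries labelled Vehicle give the background level. The labels give no strain, age, sex, dose or batch, and the treatment length stated for the liver was not carried over to muscle. They do not say that each library is a separate rat, so each p-value reflects how far single libraries scatter, which may be technical.

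Quadriceps of the rat is built mostly of fast fibres, which run largely on glycolysis, with smaller numbers of slow, oxidative fibres. When food is short, muscle turns from glucose to fatty acids, and genes such as Pdk4 and Ucp3 are known to respond to that switch. The energy a muscle spends depends on contraction, on ion pumping by the sarcoplasmic reticulum and on how tightly its mitochondria couple fuel burning to ATP, and carriers of the SLC25 family of the inner mitochondrial membrane take part in the last.

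The libraries held 13494600 to 16043500 counts in the weight-matched group and 12233900 to 16173600 in the CagriSema group. Markers of skeletal muscle fibres were high throughout, with a summed level of 167486 to 235362 CPM (counts scaled to a common library size) in weight-matched and 159639 to 188875 CPM in CagriSema libraries over the 10 markers tested. Of these 10, 9 had a log2 difference below 0 and 6 were lower with CagriSema at an unadjusted p under 0.05 (median -0.22, against 0.00 over all genes), with none past the adjusted threshold. Over all genes tested 5.87% were lower at that p. The markers share Mylpf and Tnnt3 with the fast-fibre contractile genes. With the ratio of slow-fibre to fast-fibre genes described below in the fit, 0 of the 10 were lower at that p, and the median was -0.06. Myh1, Myh2 and Ttn were not analysed here. The groups overlapped in their share of mitochondrial, ribosomal-protein and haemoglobin counts, and none of 5 such measures differed in an exact two-sided permutation test with Benjamini-Hochberg adjustment (lowest adjusted p = 0.161). RNA of liver genes stood apart in some CagriSema libraries. The summed count of 6 hepatocyte genes, chosen after their values were seen, ran from 2 to 19 in weight-matched libraries, from 1 to 8 in CagriSema libraries 33 to 36, and was 71, 41, 164 and 241 in libraries 37, 38, 39 and 40. That sum was at most 18.0 CPM in these 16 libraries. It reached 597 counts in 1 vehicle library. Its part in the results was not tested, and the count of genes past the threshold is given below without each library.

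Few genes separated the groups. By the quasi-likelihood test of edgeR, adjusted after Benjamini and Hochberg, 15 genes passed an adjusted p of 0.05, which is 0.124% of the genes tested. Lower with CagriSema were 11 (0.0912%) and higher 4 (0.0332%). The lower genes were Slc25a25, Myod1, Klf4, Amotl2, Errfi1, Kiaa0408L, Irf2bp2, Plat, Zfp503, Irf2bpl and Rnf150, and the higher genes were Cpa1, C1qtnf5, Nacc2 and Smg5. Their sizes ran from 0.25 to 1.64 on the log2 scale, and 3 of them changed more than 2-fold (Slc25a25, Myod1 and Cpa1). At an unadjusted p under 0.05 stood 679 genes higher (5.63%) and 708 lower (5.87%). The groups did not overlap in 14 genes (0.116%), 6 higher (0.0497%) and 8 lower (0.0663%), and 7 of the 14 were among the 15. Because the tissue was measured in bulk, fewer cells of a type and less RNA per cell cannot be told apart in any of these differences.

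**Figure D1:**
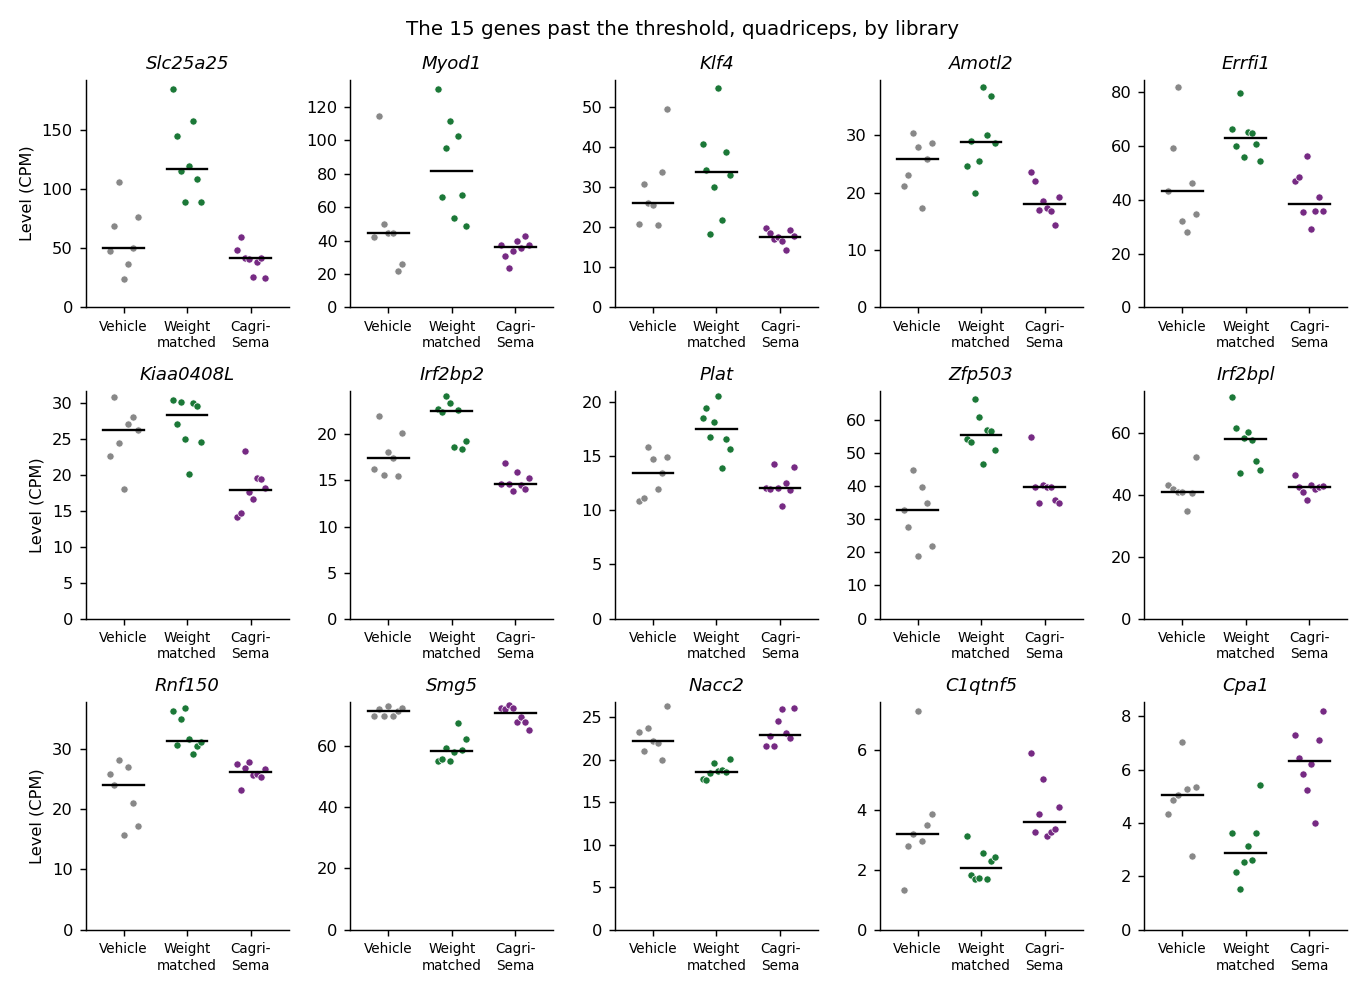
Level in CPM (linear axes from 0) of each gene past the threshold in 7 vehicle, 8 weight-matched and 8 CagriSema quadriceps libraries. Each point is a library and each bar a group median. Slc25a25 ran from 89.0 to 184 in weight-matched and from 24.8 to 59.5 in CagriSema libraries, with no overlap.

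The count moved with single libraries. It was 32 without weight-matched library 32 and 33 without CagriSema library 33. It was 8 without weight-matched library 26, 6 without library 28 and 9 without library 31. Without CagriSema libraries 35, 36, 37, 38, 39 and 40 it was 5, 8, 10, 7, 7 and 6. Without any 1 of the remaining libraries (25, 27, 29, 30 and 34) it was 11 to 16. Slc25a25, Irf2bp2, Nacc2, Plat and Kiaa0408L passed in all 16 fits that left out 1 library, Irf2bpl in 15, Myod1 in 11 and Rnf150 in 10, and the other 7 genes in 3 to 6. With all 3 quadriceps groups in 1 fit, Myod1 (adjusted p = 0.085), Errfi1 (0.288), Zfp503 (0.278), Rnf150 (0.296) and C1qtnf5 (0.213) no longer passed. DESeq2 called 107 of 13544 genes (0.790%), the same 15 among them. Also among the 107 was Alb, of the hepatocyte genes above (log2 difference 4.35 ± 1.18, DESeq2 adjusted p = 0.0371). Alb was below the filter of the edgeR fit.

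Genes of slow and fast fibres varied widely between libraries, and the ratio between them had a higher median in the CagriSema group. This ratio of summed slow-fibre to summed fast-fibre contractile gene levels ran from 1.26% to 6.76% in weight-matched libraries (median 2.69%) and from 2.94% to 9.79% in CagriSema libraries (median 5.82%). With the log2 of this ratio as a term of the fit, chosen once the values had been seen, edgeR called 0 genes. In that fit 357 genes were higher (2.96%) and 408 lower (3.38%) at an unadjusted p under 0.05. Without the ratio, limma's voom with sample weights called 5 higher and 15 lower. Within the fit with the ratio, the 2 lowest adjusted p among the 15 genes were those of Slc25a25 and Plat, both 0.0601. The sizes moved by less than 1.5 times for 14 of the 15 genes, and for Myod1 the log2 difference went from -1.27 to -0.78.

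The lowest log2 change among the 15 genes past the threshold belonged to Slc25a25, which encodes a calcium-regulated carrier that exchanges ATP-magnesium for phosphate across the inner mitochondrial membrane. Its level was 89.0 CPM at the lowest, 117 at the median and 184 at the highest in weight-matched libraries, and 24.8, 41.5 and 59.5 CPM in CagriSema libraries. Every CagriSema library lay below every weight-matched library, and the vehicle libraries reached into both, from 24.1 to 106 CPM (median 49.8). Slc25a25 was 3.12-fold lower with CagriSema, a log2 change of -1.64 ± 0.19 (SE, n = 8 and 8; edgeR adjusted p = 0.00224). The change kept between -1.74 and -1.54 in the 16 fits that left out 1 library.

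Irf2bp2 and Irf2bpl, which encode transcriptional co-regulators of the same small family, were both lower with CagriSema than in the weight-matched group. Irf2bp2 ran from 18.4 to 24.2 CPM (median 22.5) in weight-matched and from 13.9 to 16.9 CPM (median 14.6) in CagriSema libraries. The groups stood apart without overlap, and vehicle libraries ran from 15.5 to 22 CPM, reaching into both. Its log2 change was -0.52 ± 0.07 (edgeR adjusted p = 0.00224). Irf2bpl ran from 47.0 to 71.7 CPM (median 58.0) in weight-matched and from 38.3 to 46.2 CPM (median 42.5) in CagriSema libraries. All 8 CagriSema libraries were again below all 8 weight-matched libraries, with a vehicle median of 40.9 CPM. Its log2 change was -0.43 ± 0.07 (adjusted p = 0.0189).

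Myod1, the transcription factor that commits cells to the muscle lineage and is known to be more abundant in fast than in slow muscle, was lower with CagriSema. It ran from 48.4 to 131 CPM (median 81.3) in weight-matched and from 23.3 to 42.6 CPM (median 36.3) in CagriSema libraries, with a log2 change of -1.27 ± 0.20 (edgeR adjusted p = 0.0235). The groups did not overlap, although vehicle libraries ran from 21.6 to 115 CPM. Of the 18 satellite-cell and myogenic genes tested, Myod1 was the 1 member past the threshold. Pax7, the marker of satellite cells, had a log2 difference of -0.11 (adjusted p = 0.865), Myf6 one of -0.07 (adjusted p = 0.878) and Myog one of 0.42 (adjusted p = 0.503).

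Klf4 and Errfi1 belong to genes that cells switch on quickly after a stimulus. Klf4, a zinc-finger transcription factor, ran from 18.3 to 54.7 CPM (median 33.7) in weight-matched and from 14.3 to 19.7 CPM (median 17.7) in CagriSema libraries. Weight-matched library 27 was the 1 library of its group inside the CagriSema range, and all vehicle libraries (20.5 to 49.5 CPM) lay above that range. Of the CagriSema libraries, 5 lay below every weight-matched library. The log2 change was -0.95 ± 0.17 (edgeR adjusted p = 0.0442). Errfi1, which encodes a feedback inhibitor of the epidermal growth factor receptor, ran from 54.3 to 79.8 CPM (median 62.8) in weight-matched and from 29.3 to 56.2 CPM (median 38.5) in CagriSema libraries. There 1 CagriSema library reached into the weight-matched range, and 6 weight-matched libraries lay above every CagriSema library. Vehicle libraries ran from 27.9 to 81.9 CPM, across both groups. The log2 change was -0.62 ± 0.11 (adjusted p = 0.0407).

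The other lower genes moved by less than 2-fold. Plat, the tissue-type plasminogen activator, had medians of 17.4 CPM in weight-matched, 12.0 in CagriSema and 13.5 in vehicle libraries, and its log2 change was -0.49 ± 0.08 (edgeR adjusted p = 0.0189). Kiaa0408L had medians of 28.3, 17.9 and 26.2 CPM in the same order, and 7 of 8 CagriSema libraries were below every weight-matched library (log2 change -0.60 ± 0.10, adjusted p = 0.0189). Amotl2, of the angiomotin family of cell-junction proteins, had medians of 28.8, 18.0 and 25.8 CPM (log2 change -0.65 ± 0.12, adjusted p = 0.0442). For these 3 genes 1 or 2 libraries of each group lay in the range of the other group. Zfp503, a zinc-finger transcriptional repressor, had medians of 55.5, 39.7 and 32.7 CPM (log2 change -0.48 ± 0.09, adjusted p = 0.0276). CagriSema library 33, at 54.9 CPM, was the 1 library of its group within the weight-matched range, and 4 weight-matched libraries lay above every CagriSema library. Rnf150, a RING-finger protein, had medians of 31.3, 26.2 and 24.0 CPM with no overlap between the 2 groups compared (log2 change -0.32 ± 0.06, adjusted p = 0.027).

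The stretches before the annotated starts of the lower genes are shown for those that hold TGACGT, part of the cAMP response element (CRE) bound by factors of the CREB family. RefSeq windows of 300 bases, 250 before and 50 after the start (rat build GRCr8), were matched by symbol for 12 of the 15 genes, and C1qtnf5, Myod1 and Plat had no match. The motif was searched on both strands. Capitals mark each match, the 250 bases before the start are printed 5′ to 3′ on the gene's strand, and no match lay in the 50 bases that follow.

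Slc25a25: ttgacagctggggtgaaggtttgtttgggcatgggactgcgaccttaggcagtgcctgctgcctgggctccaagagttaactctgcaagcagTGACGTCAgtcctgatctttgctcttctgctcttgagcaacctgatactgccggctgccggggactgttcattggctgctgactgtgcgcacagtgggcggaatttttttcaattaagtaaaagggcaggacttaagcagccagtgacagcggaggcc

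Irf2bpl: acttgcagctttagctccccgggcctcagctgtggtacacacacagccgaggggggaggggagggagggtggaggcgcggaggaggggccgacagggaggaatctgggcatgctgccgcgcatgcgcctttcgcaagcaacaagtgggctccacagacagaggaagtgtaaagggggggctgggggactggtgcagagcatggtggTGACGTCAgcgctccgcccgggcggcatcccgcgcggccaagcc

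Kiaa0408L: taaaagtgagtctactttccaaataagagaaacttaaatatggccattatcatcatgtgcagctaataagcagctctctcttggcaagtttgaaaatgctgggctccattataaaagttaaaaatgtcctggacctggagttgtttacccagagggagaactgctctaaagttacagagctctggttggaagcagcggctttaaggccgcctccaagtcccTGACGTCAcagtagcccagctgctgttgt

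Errfi1: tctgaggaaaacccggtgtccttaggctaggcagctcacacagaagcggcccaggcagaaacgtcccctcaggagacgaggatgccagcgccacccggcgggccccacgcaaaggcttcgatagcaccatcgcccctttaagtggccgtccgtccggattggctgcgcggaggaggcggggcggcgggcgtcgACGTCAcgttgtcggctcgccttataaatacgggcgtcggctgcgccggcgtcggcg

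These lie at chr3:36116582-36116831 (minus strand) for Slc25a25, chr6:112262265-112262514 (minus strand) for Irf2bpl, chr1:30458911-30459160 (minus strand) for Kiaa0408L and chr5:166606591-166606840 (plus strand) for Errfi1. In the first 3 genes TGACGT overlaps its own reverse complement, so that both strands match and the letters read TGACGTCA, the CRE palindrome, while Errfi1 holds a match on the reverse strand alone. The forward match begins 158 bases before the start in Slc25a25, 44 in Irf2bpl and 29 in Kiaa0408L. TGACGT was present in 4 of the 9 windows of lower genes (44.4%) and in 0 of the 3 of higher genes. It was present in 11.7% of the windows of 8870 tested genes with a match and in 7.94% of all 33469 windows in the table. The palindrome, searched for after the sequences had been seen, was in 3 of the 9 (33.3%), against 3.07% of the tested genes and 1.83% of all windows. Among the genes at an unadjusted p under 0.05, TGACGT was in 14.4% of 506 lower and 10.9% of 512 higher genes, and the palindrome in 5.14% and 3.91%. The other motifs, searched on both strands, were GTAAACA of FOXO factors in 1 of the 9 lower windows (2.37% of tested genes), the E-box CACGTG in 0 (9.49%), the hypoxia core GCGTG in 4 (50.4%) and the nuclear receptor half-site AAGGTCA in 0 (2.71%). None of these was in the 3 windows of higher genes. Matches of different motifs may share bases, and the letters do not show that a factor binds there.

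Higher with CagriSema were 4 genes. Nacc2, a BTB-domain transcriptional repressor, ran from 17.6 to 20.1 CPM (median 18.6) in weight-matched and from 21.6 to 26.1 CPM (median 23.0) in CagriSema libraries. All 8 CagriSema libraries were above all 8 weight-matched libraries, and vehicle libraries, at 20.0 to 26.4 CPM, were near the CagriSema range. The log2 change was 0.33 ± 0.05 (edgeR adjusted p = 0.0189). Smg5, a factor of nonsense-mediated mRNA decay, had medians of 58.5 CPM in weight-matched and 70.6 CPM in CagriSema libraries, and 7 of 8 CagriSema libraries exceeded every weight-matched library. Its log2 change was 0.25 ± 0.05 (adjusted p = 0.0407), and vehicle libraries lay between 69.7 and 73.2 CPM.

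C1qtnf5 and Cpa1 were of low abundance. C1qtnf5, a secreted protein of the C1q and tumour necrosis factor related family, ran from 1.68 to 3.12 CPM (22 to 43 counts) in weight-matched and from 3.14 to 5.90 CPM (40 to 89 counts) in CagriSema libraries. The groups did not overlap but nearly touched, and vehicle libraries ran from 1.34 to 7.31 CPM (log2 change 0.88 ± 0.17, edgeR adjusted p = 0.0407). Cpa1, a carboxypeptidase known from the exocrine pancreas, ran from 1.53 to 5.44 CPM (20 to 83 counts) in weight-matched and from 4.01 to 8.20 CPM (49 to 114 counts) in CagriSema libraries. Weight-matched library 32 lay inside the CagriSema range, and 6 CagriSema libraries lay above the whole weight-matched range (log2 change 1.02 ± 0.20, adjusted p = 0.0409). The exocrine pancreas genes Cpb1, Cela1, Ctrb1, Prss1 and Pnlip, chosen after the values were seen, summed to 0 to 2 counts in each of the 16 libraries.

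Around Slc25a25, the other genes of uncoupling and heat production were examined. Of the 10 tested, Slc25a25 was the 1 past the threshold. Ucp3, the uncoupling-protein relative of muscle mitochondria, ran from 21.2 to 148 CPM (median 77.6) in weight-matched and from 11.8 to 40.9 CPM (median 20.3) in CagriSema libraries. Weight-matched library 27 was the 1 of its group within the CagriSema range, and vehicle libraries ran from 19.7 to 65.1 CPM. Of the CagriSema libraries, 4 lay below every weight-matched library. The log2 difference of -1.77 ± 0.39 was of the size of that of Slc25a25, but its edgeR adjusted p was 0.105. DESeq2 (adjusted p = 0.00104) and the fit of all 3 quadriceps groups (0.0464) called it. Sln, sarcolipin, which uncouples the calcium pump of the sarcoplasmic reticulum, had medians of 5.47 and 10.1 CPM (log2 difference 0.71 ± 0.26, adjusted p = 0.326). Ucp2 had a log2 difference of -0.07 ± 0.20 (adjusted p = 0.932) and Ppargc1a, the coactivator of mitochondrial biogenesis, one of 0.04 ± 0.09 (adjusted p = 0.906). Ucp1 had 1 count over the 16 libraries and was not tested.

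**Figure D2:**
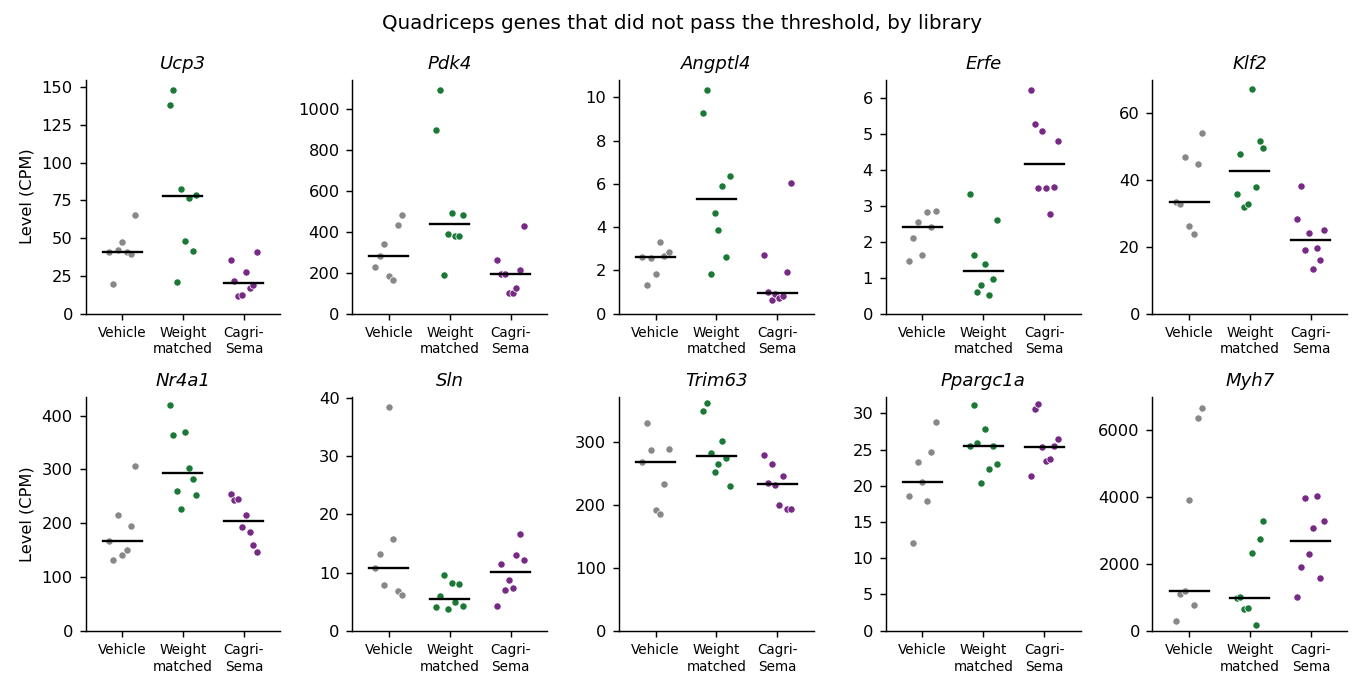
Level in CPM (linear axes from 0) of 10 genes that did not pass the edgeR threshold, in 7 vehicle, 8 weight-matched and 8 CagriSema quadriceps libraries, with group medians as bars. Ucp3 and Pdk4 had wide ranges in the weight-matched group (21.2 to 148 and 190 to 1094), which reached down into the CagriSema range.

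None of 18 fasting and PPAR-responsive genes passed edgeR's threshold, 4 were lower and 2 higher at an unadjusted p under 0.05, and their median log2 difference was 0.00 like that of all genes. With the fibre ratio in the fit 6 were lower and 0 higher at that p, and the median was -0.09. Pdk4, the kinase that shuts down pyruvate dehydrogenase, ran from 190 to 1094 CPM (median 437) in weight-matched and from 101 to 429 CPM (median 193) in CagriSema libraries. The groups overlapped, with 4 weight-matched libraries above all CagriSema libraries (log2 difference -1.41 ± 0.38, edgeR adjusted p = 0.184, DESeq2 adjusted p = 0.0474). Angptl4, an inhibitor of lipoprotein lipase named after its value was seen, had medians of 5.28 and 0.96 CPM (log2 difference -1.60 ± 0.48, edgeR adjusted p = 0.232). Of the 34 genes of fatty acid uptake and oxidation, 32 had a log2 difference above 0, against 50.7% of all genes tested. The median was 0.17, and 5 were higher and 1 lower at an unadjusted p under 0.05. With the fibre ratio in the fit 8 of the 34 were above 0 and the median was -0.06.

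Several quick-response lists held more low p-values in the lower direction than the 5.87% over all genes. Of 27 immediate-early genes, Klf4 was past the threshold, 8 were lower at an unadjusted p under 0.05 and 2 were higher. With the fibre ratio in the fit these counts were 8 and 2 as well, and the median was -0.12 without and -0.14 with it. The members with the lowest p, named after their values were seen, were Klf2 (-0.95 ± 0.21, edgeR adjusted p = 0.0995), Nr4a1 (-0.60 ± 0.14, 0.118) and Klf6 (-0.44 ± 0.12, 0.163), all transcription factors, beside Ier2 at 0.40 ± 0.11 (0.167). DESeq2 called Klf2, Klf4, Klf6 and Nr4a1. Fos (-0.23, adjusted p = 0.926) and Egr1 (0.83, adjusted p = 0.505), the classical members of this list, varied widely within both groups.

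Of 24 activity and cAMP-responsive genes, Slc25a25 passed, and 8 were lower and 1 higher at an unadjusted p under 0.05. With the fibre ratio in the fit 5 were lower and 0 higher at that p. The median was -0.07 without and -0.09 with the ratio. The list shares Nr4a1 and Nr4a3 with the immediate-early list. Pde4d, a phosphodiesterase that breaks down cAMP, had a log2 difference of -0.35 ± 0.08 (edgeR adjusted p = 0.0675), and Nr4a3 one of -1.35 ± 0.42 (adjusted p = 0.244). Of 18 glucocorticoid-responsive genes, Errfi1 passed, 16 had a difference below 0 and 8 were lower at an unadjusted p under 0.05. Among them Tsc22d3 had a log2 difference of -0.33 ± 0.10 (adjusted p = 0.224) and Ddit4 one of -0.59 ± 0.18 (adjusted p = 0.238). Their median of -0.16 was -0.13 with the fibre ratio in the fit, where 3 were lower at an unadjusted p under 0.05.

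The contractile genes of slow and fast fibres gave the widest list difference, with no member past the edgeR threshold. All 15 slow-fibre genes had a log2 difference above 0, with a median of 0.83 and 5 members at an unadjusted p under 0.05. Their summed level ran from 2168 to 8907 CPM (median 4596) in weight-matched, from 4638 to 12089 CPM (median 8229) in CagriSema and from 3001 to 17376 CPM in vehicle libraries. Myh7, the slow myosin heavy chain, ran from 168 to 3279 CPM in weight-matched and from 1024 to 4035 CPM in CagriSema libraries (log2 difference 0.84 ± 0.50, edgeR adjusted p = 0.562). Of 14 fast-fibre genes, 13 were below 0 with a median of -0.32, and 11 were lower at an unadjusted p under 0.05. Mylk2, the kinase of fast myosin light chains, had a log2 difference of -0.40 ± 0.11 (adjusted p = 0.174), and Myh4, the fastest myosin heavy chain, one of -0.22 ± 0.10 (adjusted p = 0.39).

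**Figure D3:**
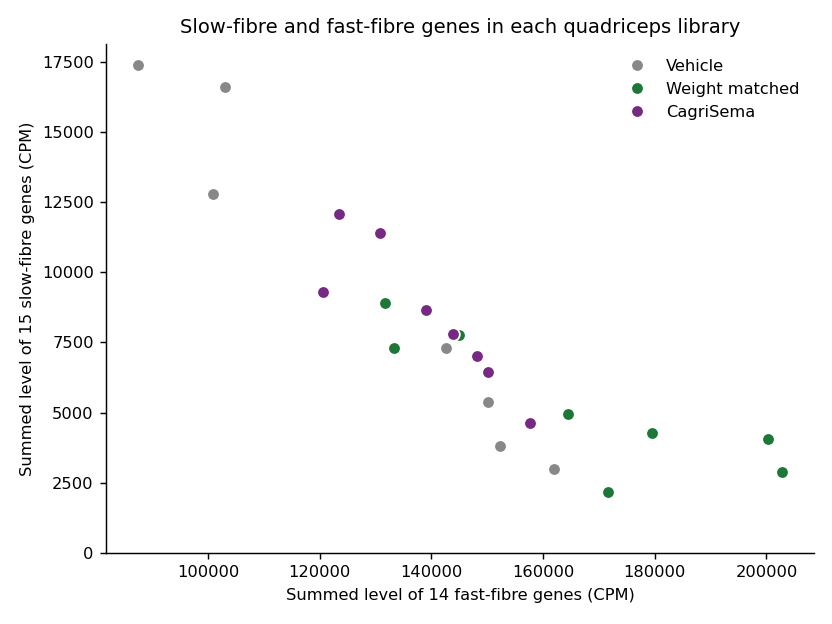
Summed level of 15 slow-fibre genes against summed level of 14 fast-fibre genes, both in CPM, in each of the 7 vehicle, 8 weight-matched and 8 CagriSema quadriceps libraries. Libraries high in one sum were low in the other, and the 2 treated groups overlapped along both axes while vehicle libraries reached the highest slow-fibre sums, up to 17376 CPM.

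The same axis ran through the libraries as a whole. The first principal component of log2 CPM held 18.2% of the variance and the second 15.1%. Weight-matched libraries lay between -25.4 and 13 on the first and CagriSema libraries between -6.69 and 20.7, with 5 weight-matched libraries below every CagriSema library. CagriSema library 35 had both the highest value on the first, 20.7, and the highest fibre ratio, 9.79%. Weight-matched library 28 had the lowest value, -25.4, with a ratio of 1.41%. The lowest ratio, 1.26%, was that of weight-matched library 30, at -22.0. More slow fibres and more slow-fibre transcripts per fibre cannot be told apart in bulk tissue.

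Glycolytic genes leaned lower and oxidative genes higher, with no member past edgeR's threshold. Of 34 genes of glycolysis and glycogen, 25 were below 0 with a median log2 difference of -0.18, and 14 were lower at an unadjusted p under 0.05. Pkm, the last enzyme of glycolysis, had a log2 difference of -0.38 ± 0.10 (edgeR adjusted p = 0.147) and Fbp2, the muscle fructose bisphosphatase, one of -0.67 ± 0.19 (adjusted p = 0.20). All 69 nuclear genes of oxidative phosphorylation were above 0, with a median of 0.09 and 18 higher at an unadjusted p under 0.05. Uqcrq, a subunit of complex III, had medians of 135 and 205 CPM (log2 difference 0.49 ± 0.11, adjusted p = 0.0924). Over all genes tested 50.7% were above 0, and 5.63% were higher and 5.87% lower at an unadjusted p under 0.05. With the fibre ratio in the fit, the median was -0.04 for glycolysis, where 7 of 34 were above 0 and 2 were lower at that p. For oxidative phosphorylation the median with the ratio was 0.00, where 36 of 69 were above 0 and 2 were higher at that p. The medians of 0.01 for slow-fibre and -0.01 for fast-fibre genes in that fit are set by its construction, because the ratio was made from those genes.

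**Figure D4:**
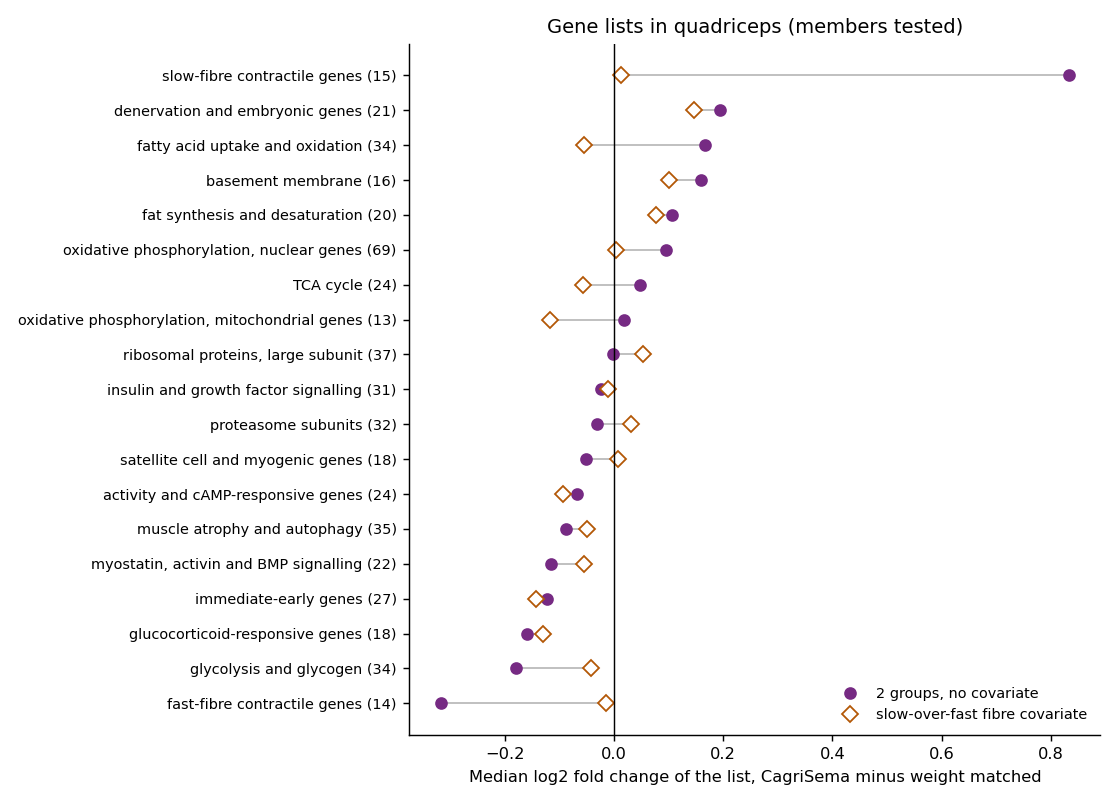
Median log2 fold change, CagriSema minus weight matched, over the tested members of 19 gene lists (number of members in brackets), for the fit of the 2 groups (filled circles) and with the slow-over-fast fibre ratio as a covariate (open diamonds). Slow-fibre genes went from 0.83 to 0.01, while immediate-early genes stood at -0.12 and -0.14.

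Genes of muscle wasting were examined because weight loss can take muscle with fat. Of 35 genes of atrophy and autophagy none passed edgeR's threshold, 28 were below 0 and 8 were lower at an unadjusted p under 0.05, with a median log2 difference of -0.09. With the fibre ratio in the fit 4 were lower and 0 higher at that p, and the median was -0.05. The list shares Ddit4 and Cebpd with the glucocorticoid-responsive list and Klf15 with the fasting list. Trim63, which encodes the ubiquitin ligase MuRF1, ran from 230 to 363 CPM in weight-matched and from 194 to 279 CPM in CagriSema libraries (log2 difference -0.33 ± 0.10, edgeR adjusted p = 0.211). Fbxo32, which encodes atrogin-1, had overlapping ranges of 96.1 to 224 and 86.3 to 183 CPM (log2 difference -0.23 ± 0.17, adjusted p = 0.664). Mstn, the growth inhibitor myostatin, had medians of 15 and 8.84 CPM (log2 difference -0.51 ± 0.23, adjusted p = 0.426), and with the fibre ratio in the fit the difference was -0.07. Of 22 genes of myostatin, activin and BMP signalling, 6 were lower and 1 higher at an unadjusted p under 0.05. With the fibre ratio in the fit 4 were lower and 2 higher. Over all genes tested, without the ratio, 5.87% were lower and 5.63% higher at that p. Proteasome subunits (32 tested, median -0.03) and ribosomal proteins of the large subunit (37 tested, median 0.00) held 1 and 0 members at an unadjusted p under 0.05, the 1 being lower.

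Erfe, Aplnr, Heyl and Fam53b had the lowest p among higher genes that missed the threshold. Some lower genes missed it more narrowly, with an edgeR adjusted p of 0.0508 for Arrdc4 and 0.0522 for both Id4 and Pdgfa. DESeq2 called these lower genes. None of the 20 listed secreted muscle factors passed edgeR's threshold. Erfe, erythroferrone, a hormone that acts on iron handling through liver hepcidin, ran from 0.51 to 3.34 CPM (7 to 46 counts) in weight-matched and from 2.78 to 6.24 CPM (34 to 94 counts) in CagriSema libraries. The groups overlapped at 1 library each, weight-matched library 25 and CagriSema library 38 (log2 difference 1.54 ± 0.31, edgeR adjusted p = 0.0589). Erfe passed with DESeq2 (adjusted p = 0.000474), with voom (0.0231) and in the fit of all 3 quadriceps groups (0.023). Aplnr, the apelin receptor, had medians of 5.90 and 10.2 CPM (log2 difference 0.83 ± 0.17, edgeR adjusted p = 0.066). It passed with DESeq2 (adjusted p = 0.00135) and in the fit of all 3 quadriceps groups (0.0485). Heyl, a target of Notch signalling, had medians of 7.79 and 11.4 CPM (log2 difference 0.51 ± 0.11, adjusted p = 0.066; DESeq2 0.0051). Fam53b did not overlap between groups, at 44.0 to 50.7 and 50.7 to 63.3 CPM, yet had an adjusted p of 0.066 (log2 difference 0.24 ± 0.05; DESeq2 adjusted p = 0.00734). Scd, a fatty acid desaturase, had medians of 1.33 and 3.14 CPM (log2 difference 0.78 ± 0.44, adjusted p = 0.533).

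The receptor of semaglutide was at the floor in this tissue, and the core of the amylin receptor had few counts but some in every library. Glp1r had 1 count in all 16 libraries together. Calcr, the amylin receptor's core, had 4 to 18 counts per library in the weight-matched and 3 to 13 in the CagriSema group, and Ramp3, one of its partners, 43 counts in all. These, Gipr, the receptor of the related hormone GIP, with 12 counts and Fgf21 with 15 counts were below the filter and were not tested. A count of 0 in 1 library allows a level of up to 0.181 to 0.245 CPM, taking 3 counts as the floor. Of the accessory proteins that pair with such receptors, Ramp1 had medians of 11.7 and 15 CPM (log2 difference 0.27 ± 0.19, edgeR adjusted p = 0.641), and Ramp2 had a difference of 0.21 ± 0.11 (adjusted p = 0.491). Calcrl, a separate receptor core that responds to CGRP and adrenomedullin, had one of 0.09 ± 0.09 (adjusted p = 0.759).

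Markers of other cells in the muscle gave no member past the threshold. Endothelial and vessel genes summed to 531 to 821 CPM in weight-matched and 598 to 822 CPM in CagriSema libraries over the 21 in the table, with Cldn5 at 0 in all 16. Macrophage markers summed to 68.1 to 216 and 38.9 to 206 CPM over 16, adipocyte markers to 1029 to 2011 and 987 to 1827 CPM over 14, and fibroblast markers to 796 to 1639 and 693 to 1330 CPM over 13. Of 16 basement membrane genes, 5 were higher at an unadjusted p under 0.05 and 0 lower, with a median of 0.16, and 2 were higher with the fibre ratio in the fit. Col4a1 had a log2 difference of 0.30 ± 0.09 (edgeR adjusted p = 0.209). Of 21 denervation and embryonic genes, 6 were higher and 1 lower at an unadjusted p under 0.05. With the fibre ratio in the fit 2 were higher and 0 lower. Over all genes tested, without the ratio, 5.63% were higher and 5.87% lower at that p. Chrnb1, an acetylcholine receptor subunit, had a log2 difference of 0.27 ± 0.06 (adjusted p = 0.0675).

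Whether the difference in quadriceps differed from that in liver was tested as an interaction over the 31 CagriSema and weight-matched libraries of both tissues. For a gene not called, this test does not show that its difference was also present in liver. Of 13833 genes, edgeR called 188 (1.36%), among them 2 of the 15 quadriceps genes. Slc25a25 differed by -1.65 ± 0.22 in quadriceps and by -0.13 ± 0.22 in liver, a difference between tissues of -1.53 ± 0.30 (adjusted p = 0.00984). Its liver medians were 220 CPM in weight-matched and 196 CPM in CagriSema libraries. Amotl2 differed by -0.65 ± 0.11 in quadriceps and 0.11 ± 0.11 in liver, a difference of -0.77 ± 0.16 (adjusted p = 0.00984). Liver and quadriceps libraries share numbers, though no label pairs them. Same-numbered libraries correlated at -0.005 to 0.16 in their deviations, and 12 of 15 correlated best with their own number. The fit above treats the libraries of both tissues as independent. With a block on that number, Slc25a25 did not pass (edgeR adjusted p = 0.0712) and Amotl2 did (0.0363). That fit of 30 libraries called 80 genes, 1 of the 15 among them. Without the block, the next 4 by p were Errfi1 (difference -0.49 ± 0.14, adjusted p = 0.0812), Rnf150 (-0.60 ± 0.18, 0.102), Nacc2 (0.29 ± 0.09, 0.127) and Klf4 (-0.63 ± 0.28, 0.316). Irf2bp2 had -0.53 ± 0.14 in quadriceps and -0.44 ± 0.14 in liver, and the difference of -0.09 ± 0.19 did not pass (adjusted p = 0.917). Myod1 and Cpa1 had a median of 0 in both liver groups and give no comparison between tissues.

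**Figure D5:**
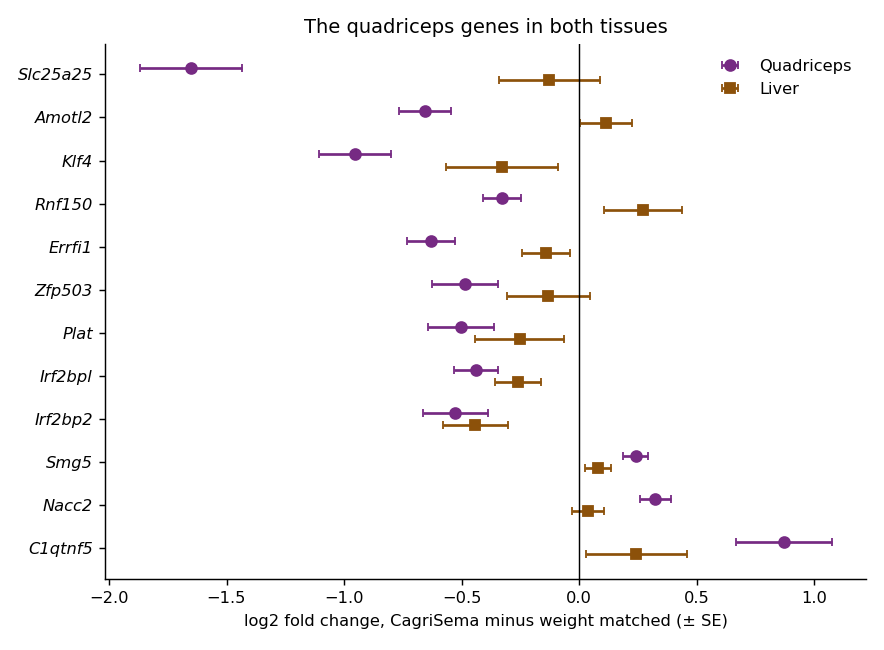
Log2 fold change, CagriSema minus weight matched, ± SE in quadriceps (circles) and liver (squares) for 12 of the 15 genes past the quadriceps threshold, from 1 fit of 31 libraries. Kiaa0408L, Myod1 and Cpa1 are left out because their liver medians were under 0.5 CPM, and Slc25a25, at -1.65 in quadriceps and -0.13 in liver, shows the widest gap.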

How the data were processed

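Whole-number counts per gene were used as deposited by the authors, in 1 table with Ensembl identifiers and symbols. The labels' protocols name an RNeasy Minikit for extraction and a Twist UMI kit for the libraries, and the submitters' processing notes list fastp 0.23.1 and STAR 2.5.2b. Genome build, counting program and any use of molecular identifiers were not given in the sources used here, so reads of overlapping or near-identical genes may be split. Columns were matched to samples by title, and 1 count column that matched no sample was not used.

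The 2 quadriceps groups were fitted in R 4.3.3 with edgeR 4.0.16 (filterByExpr, TMM scaling, robust quasi-likelihood F test), with Benjamini-Hochberg adjustment over 12063 genes and a threshold of 0.05. Adjusted p-values come from it where no other tool is named. SE is the log2 fold change divided by the root of its F statistic. CPM values use TMM-scaled library sizes. Fold changes are CagriSema minus weight matched. DESeq2 1.42.0 and voom in limma 3.58.1 were alternatives, beside RLE scaling, other filters, a fit of all 3 quadriceps groups, non-robust estimation and leaving out each library. The fibre ratio as a covariate was added after the data were seen. Fits were tested on simulated data.

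The groups, the 49 gene lists (1032 genes, 28 without a row, 11 matched by an older symbol) and the genes named were chosen with earlier results of these data known. Named were all genes past the threshold, the 8 lowest p-values per direction, list members past it and a set of receptors and metabolic genes. No 2 of the 16 libraries were near-identical: chi-square divided by its degrees of freedom was 5.47 or more over 120 pairs. Replicate numbers were not shared between the 2 groups.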

Additional observations from a re-analysis of the deposited data

Results flagged for a closer look

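Slc25a25 is flagged because its response differed between tissues: the quadriceps minus liver difference of the log2 fold changes was -1.53 (edgeR adjusted p = 0.00984). Amotl2 is flagged on the same ground, at -0.77 (adjusted p = 0.00984). With a block on the library number shared by the tissues, Slc25a25 did not pass (edgeR adjusted p = 0.0712), while Amotl2 did (0.0363).

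Single libraries far from the rest of their group flagged 3 more values. Errfi1 stood at 79.8 CPM in weight-matched library 27, where the next library had 66.3 CPM. Zfp503 stood at 54.9 CPM in CagriSema library 33, where the next had 40.2 CPM, and Ramp1 at 7.03 CPM in the same library, where the next had 13.7 CPM. For 32 genes, 64 groups of libraries were checked, and chance alone flags about 1 in 20 groups.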

How the results depend on the processing

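The count of 15 genes past the threshold was 107 by DESeq2 and 0 with the slow-over-fast fibre ratio as a covariate. It ran from 5 to 33 when 1 library was left out, and the 15 genes were all among the calls of DESeq2. RLE scaling called 4 higher and 13 lower and voom 5 and 15, each with all 15 among them. Without a filter 4 and 9 were called, and with all 3 quadriceps groups in the fit 6 and 10, sharing 11 and 10 genes with the 15. The cause of these shifts was not tested. With the covariate 4 differences that were past no threshold turned sign, to -0.053 for Calcrl, -0.059 for Ramp1, -0.070 for Ppargc1a and -0.14 for Myh7. Leaving out 1 library gave -0.15 to 0.049 for Ucp2 and -9.51e-05 to 0.093 for Ppargc1a. The 188 genes that differed between tissues were 363 by DESeq2, 117 without a filter and 80 with a replicate block on the number shared by liver and quadriceps libraries, where 30 libraries could enter. The numbers pair samples by no label: same-numbered libraries correlated at -0.005 to 0.16 in their deviations, 6 of 15 over 0.1, and 12 of 15 correlated best with their own number. With the block Slc25a25 had an adjusted p of 0.0712 and Amotl2 one of 0.0363. Genes of low abundance, such as C1qtnf5, Cpa1 and Erfe, rest on at most 114 counts per library, which limits their precision.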
